A study of Homo sapiens with 4 samples.

Results

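ASPH encodes aspartate beta-hydroxylase, a membrane enzyme of the endoplasmic reticulum, and its transcripts were examined in H1299 cells treated with HgCl2. The members are all transcripts of the gene with a count in any column of the deposited table, which are 12 of the 30 ASPH transcripts listed and belong to 39729 transcripts with a count among 227368 listed. They were found by mapping the transcript identifiers to gene symbols of GENCODE 44 on GRCh38, and were divided by their annotated 3′ ends. The gene was selected on the counts and the fold change of ASPH-203 between the 2 groups, the same comparison as given here, so all values of that comparison are a description and not a test.

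H1299 is a cell line from a human non-small-cell lung cancer. The cells were treated for 48 h with 5 μM HgCl2, an inorganic mercury salt, or with the solvent, 0.6% EtOH, as control, and poly-A RNA was sequenced. Each group has 2 columns of values, labelled replicate 1 and 2. The treatment text of the labels names the mercury salt for all samples, whereas the study's methods give the control cells solvent alone, which is followed here.

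The gene is known to give several proteins from shared exons. The full-length protein carries a cytosolic start, a membrane anchor, a charged luminal stretch and, at its far end, the catalytic domain, an oxygenase that uses iron and 2-oxoglutarate to hydroxylate aspartate and asparagine residues in EGF-like domains. Humbug and junctate keep the acidic, calcium-binding stretch but stop before the catalytic domain, and junctate takes part in calcium entry after store release. Junctin, best known from the sarcoplasmic reticulum of muscle, stops earlier still, has a lysine-rich luminal part and binds calsequestrin, triadin and the ryanodine receptor. The annotation does not carry these protein names, so transcripts are called here by where they end.

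ASPH (ENSG00000198363) lies on the minus strand of chromosome 8 from 61500556 to 61714640 of GRCh38, a span of 214 kb. The full-length transcript ASPH-203 (ENST00000379454), the MANE Select transcript of the gene, has 25 exons and encodes 758 residues. With ASPH-230, which starts inside the gene and encodes 729 residues, it makes up the hydroxylase end, the last exon from 61500556 to 61503509. The early end holds 5 coding transcripts that stop before the fourth exon of ASPH-203. The middle end holds 10 coding transcripts that stop between there and the last exon. Another 9 transcripts have no coding sequence, most of them retained introns, and 4 coding transcripts have an incomplete 3′ end.

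The proteins computed from the annotated coding sequences differed along the same lines. Of the early ends, ASPH-204 and ASPH-224 encode 225 and 210 residues, of which 19.6% and 20% are lysine, against 7.12% in the full-length protein. The other early ends, ASPH-202, ASPH-206 and ASPH-208, have between 5.42% and 6.19% lysine. ASPH-208 encodes 113 residues, of which the first 108 are those of the full-length protein and the last 5 come from its own last exon. The 8 complete proteins of the middle end have between 23.3% and 30.1% acidic residues, against 18.6% in the full-length protein, and between 1.84% and 3.91% lysine. By composition the lysine-rich pair resembles the description of junctin, and the middle ends resemble that of junctate and humbug.

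**Figure D1:**
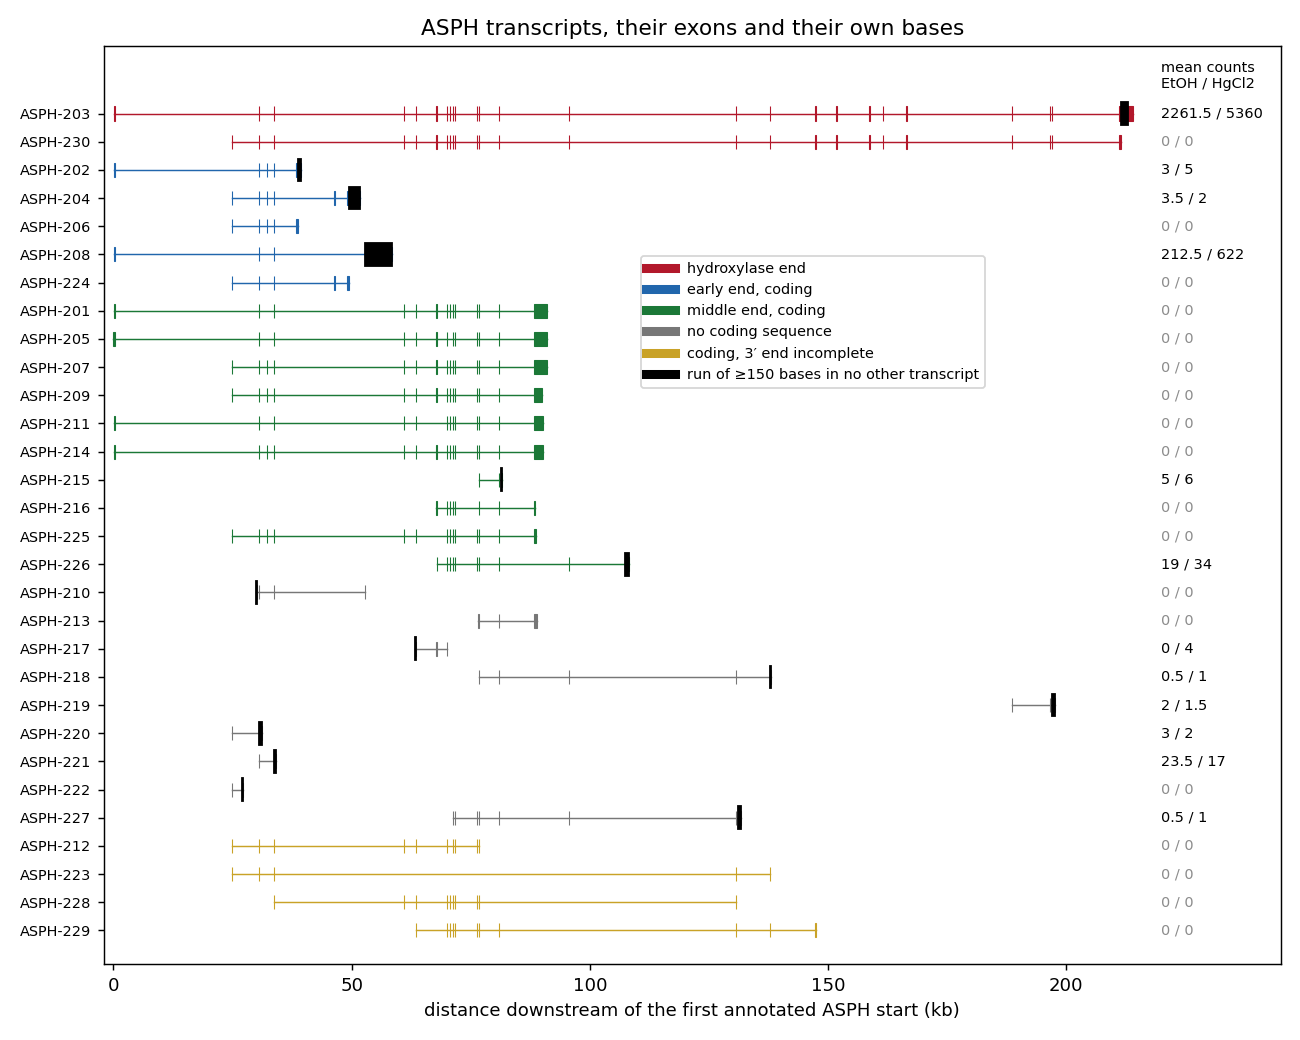
Exons (bars) and introns (lines) of the 30 listed ASPH transcripts by distance in kb from the first annotated start, coloured by 3′ end, with black bars for runs of at least 150 bases that no other listed transcript covers and the mean counts of EtOH and HgCl2 at the right. All 12 counted transcripts have a black bar, and the 8 middle ends that share a stop codon have none and 0 counts.

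Which isoforms could be seen at all followed the bases that each transcript shares with no other listed transcript, called own bases here. All 12 counted transcripts have a run of at least 171 own bases. None of the 16 ASPH transcripts with a run under 150 own bases had a count, the longest such run being 44 bases, and 13 of these transcripts have no own base. Of the 14 with a run of at least 150 bases, only ASPH-210 and ASPH-222, both without a defined coding sequence, had 0 counts in all 4 columns. Over the whole table, 35.8% of the 83980 transcripts with such a run had a count, against 6.71% of the 139578 without. The 8 middle ends that share the last coding base at 61626276, among them ASPH-201 with 313 residues and ASPH-207 with 299, are all among the transcripts without such a run. Their 0 counts therefore do not show that the RNA was absent, and the level of the junctate and humbug type with this stop codon cannot be read from these tables. Own bases were taken from GENCODE 44, a later annotation than the Ensembl 98 used for counting, and some transcripts without own bases in the later one, such as CALU-201, did have counts.

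Both columns of a group were first set against each other. The variance of their difference was 0.505 times that of counting noise over 12382 transcripts for EtOH and 0.516 times over 10611 transcripts for HgCl2, against 31.9 between EtOH replicate 1 and HgCl2 replicate 1. Since they differed by less than sampling noise, the columns of a group were treated as 1 sample. Every difference given here is thus between single samples, without a replicate check and without a p-value. Where columns are said to overlap or not between the groups, this describes the counts and adds no replication. Intervals are exact 95% intervals from the mean counts (Clopper-Pearson for ratios and shares, Poisson for single counts) and cover counting error only. The total counts per column lay between 4720978 and 5053120. Transcripts with a count were fewer in HgCl2, at 25432 and 25531 per column, against 33148 and 33106 in EtOH. Any part of this gap in the differences given here was not tested. Marker genes were summed over their listed transcripts, and as for ASPH, a low or 0 count does not by itself show a low level of the gene. VIM, a mesenchymal filament gene, had between 501 and 628 counts per column, and the leukocyte gene PTPRC had 0. The epithelial keratin KRT8 had 53 and 58 counts in EtOH and 4 and 4 in HgCl2, whereas its partner KRT18 had 23 and 24 against 18 and 31, which overlap. Any part of the keratin counts in the ASPH values was not tested.

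The full-length hydroxylase transcript carried most of the ASPH counts and was higher in HgCl2. ASPH-203 had 2270 and 2253 counts in EtOH, against 5371 and 5349 in HgCl2. The HgCl2 columns lay above both EtOH columns, and the columns of a group lay close together. After TMM normalization, which scales the libraries to a common centre, the edgeR log2 fold change of HgCl2 over EtOH was 1.39 (95% interval 1.32 to 1.46), or 2.62-fold. In the FPKM deposited by the authors, which divides by transcript length, the values of ASPH-203 were 77.95 and 77.4 in EtOH and 230.5 and 229.5 in HgCl2. The FPKM per count was 1.25 times higher in the HgCl2 columns, so on log2(FPKM + 1) the difference was 1.55. On that scale the median over all tested transcripts was -0.03, against -0.21 in the edgeR fit, and 46.7% of the transcripts at least 2-fold different were higher in HgCl2, against 36.0%. The share also moved with the value added to the FPKM. With log2(FPKM + 0.1) it was 41.7%, while the median was again -0.03.

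The bases that set ASPH-203 apart from other transcripts are a small part of it. Its own bases are 1470 of 5301, or 27.7%, and form 1 run from 61501646 to 61503115 of chromosome 8. The run lies in the 3′ UTR and holds no coding base. The remaining bases of the last exon are shared with ASPH-230 on one side and, over 1090 bases, with transcripts of CLVS1 on the opposite strand, all of which had 0 counts. ASPH-230 has no own base, so full-length RNA from the internal start could not be told from other ASPH RNA.

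ASPH-203 was among the more abundant transcripts, at rank 155 by mean count of the 17547 tested transcripts, which are those whose mean FPKM passed 1 in either group. Among the 391 tested transcripts that averaged 2000 counts or more, it had rank 2 by log2 fold change, where the median was 0.26. Of these 391, 2.56% were at least 2-fold different, 1.79% higher and 0.767% lower in HgCl2. Of all tested transcripts 53.3% were at least 2-fold different, 19.2% higher and 34.1% lower.

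The counts on a short transcript were higher in HgCl2 as well. ASPH-208 (ENST00000517856), the early end with 113 residues, had 202 and 223 counts in EtOH and 622 and 622 in HgCl2. Both HgCl2 columns lay above both EtOH columns. The log2 fold change was 1.69 (1.47 to 1.92), or 3.23-fold, rank 12 among the 2712 tested transcripts that averaged 200 counts or more, of which 6.67% were at least 2-fold different, 4.65% higher and 2.03% lower. Its own bases, 5686 of 6337, form 1 run from 61656128 to 61661813 in the 3′ UTR of its last exon, and that whole run lies within an intron of ASPH-203. Counts on this run could not be told from unspliced ASPH RNA, and any part of such RNA in them was not tested. The share of ASPH-208 in the counts on ASPH-203 and ASPH-208 together was 8.17% and 9.01% in the EtOH columns and 10.4% in each HgCl2 column. From the mean counts the shares were 8.59% (7.51% to 9.76%) and 10.4% (9.64% to 11.2%). The log2 fold change of ASPH-208 was 0.30 above that of ASPH-203, with a Wald interval from the mean counts of 0.07 to 0.54, which leaves out 0 but covers counting error alone.

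The lysine-rich early end was close to the lower limit of counting. ASPH-204, with 225 residues, had 3 and 4 counts in EtOH and 2 and 2 in HgCl2, on 2322 own bases. Its partner ASPH-224 has no own base and 0 counts. ASPH-202, with 203 residues and another early stop codon, had 3 and 3 counts in EtOH and 3 and 7 in HgCl2. Neither was tested, since their mean FPKM did not reach 1 in either group, and a change in them was not detectable at this depth. The own bases of ASPH-204 and ASPH-202 lie within the same intron of ASPH-203 as those of ASPH-208. Their few counts could likewise not be told from unspliced ASPH RNA.

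Of the middle ends, ASPH-226 and ASPH-215 were counted, which end apart from the 8 transcripts with the shared stop codon. ASPH-226, which starts inside the gene and encodes 163 residues, had 19 and 19 counts in EtOH and 32 and 36 in HgCl2. These columns did not overlap between the groups, and the log2 fold change of 0.98 (0.13 to 1.88) lay just under the 2-fold line. With the size factors of DESeq2 it was 1.02, just above it. ASPH-215, an incomplete coding transcript, had 4 and 6 counts in EtOH and 5 and 7 in HgCl2, which overlap, with a log2 fold change of 0.40 (-1.57 to 2.46). The own bases of ASPH-226 and ASPH-215 lie within introns of ASPH-203. Their counts could thus not be told from unspliced ASPH RNA, and any part of such RNA in them was not tested.

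**Figure D2:**
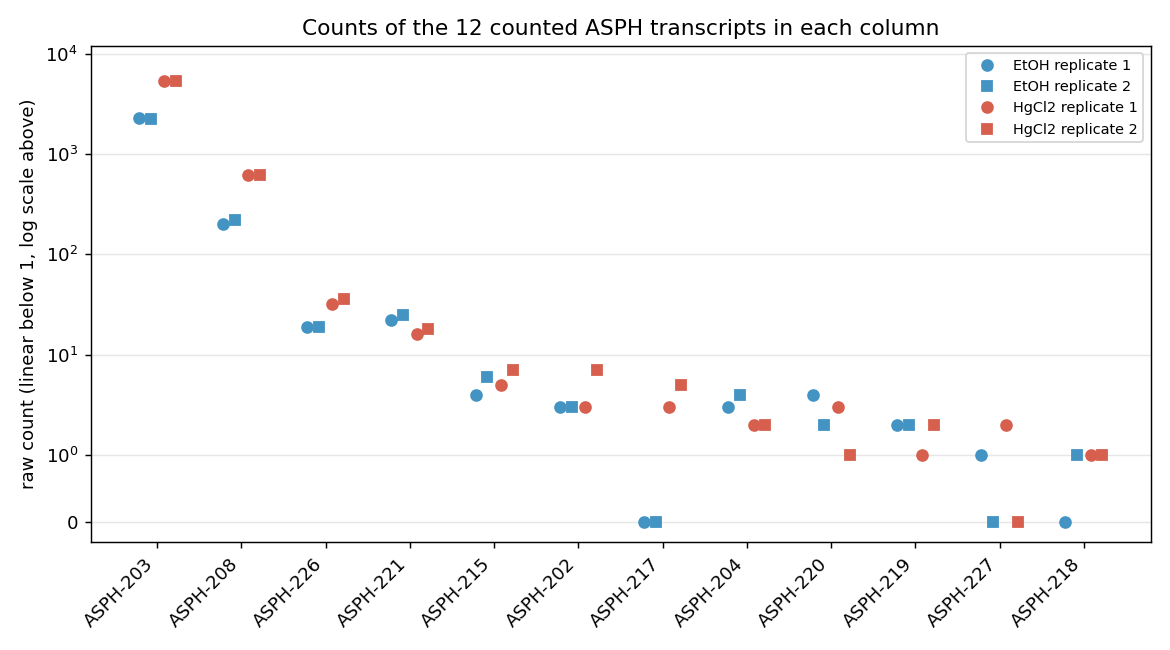
Raw counts of the 12 counted ASPH transcripts in each of the 4 columns, on an axis that is linear below 1 and logarithmic above, ordered by the mean in HgCl2. ASPH-203, ASPH-208 and ASPH-226 lie higher in both HgCl2 columns than in both EtOH columns, as does ASPH-217 at 0 and 0 against 3 and 5 counts, while ASPH-221 and ASPH-204 lie lower in both.

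The transcripts without coding sequence were sparsely counted. The one with the most counts, and the only one above a mean of 3 counts in both groups, was the retained intron ASPH-221, with 22 and 25 counts in EtOH and 16 and 18 in HgCl2, at a log2 fold change of -0.32 (-1.32 to 0.64). Its raw counts were lower in both HgCl2 columns, but its FPKM overlapped between the groups, at 6.02 and 6.84 in EtOH and 5.47 and 6.16 in HgCl2. ASPH-217 had 0 counts in both EtOH columns and 3 and 5 in HgCl2. The exact interval of its log2 ratio begins at -0.46 and has no upper end, so counting error alone allows no increase. The other counted ones, ASPH-218, ASPH-219, ASPH-220 and ASPH-227, had between 0 and 4 counts in every column and overlapped between the groups.

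Summed by class, the contrast between the ends was as follows. The hydroxylase end had the counts of ASPH-203 alone, 2.62-fold higher in HgCl2. The early ends summed to 208 and 230 counts in EtOH and 627 and 631 in HgCl2, a log2 fold change of 1.67 (1.44 to 1.89). Nearly all of these were counts of ASPH-208, which could not be told from unspliced ASPH RNA. The middle ends summed to 23 and 25 counts against 37 and 43, with 0.88 (0.12 to 1.67). These were counts of ASPH-226 and ASPH-215 alone, and the level of the middle ends with the shared stop codon could not be read. The transcripts without coding sequence summed to 29 and 30 counts against 26 and 27, with -0.01 (-0.82 to 0.80), a value near 0 whose sign turned with the size factors of DESeq2 (0.03) and with log2(FPKM + 1) (0.20). The interval of the last class lies below those of the hydroxylase and the early ends. It overlaps that of the middle ends. Over all ASPH transcripts, 2530 and 2538 counts in EtOH stood against 6061 and 6050 in HgCl2, or 0.0501% and 0.0502% of all counts against 0.128% in each HgCl2 column.

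Most counts were on the hydroxylase end in both groups. It held 89.2% of the ASPH counts in EtOH (88.0% to 90.4%) and 88.5% in HgCl2 (87.7% to 89.3%), with overlapping intervals. The early ends held 8.64% (7.58% to 9.80%) and 10.4% (9.63% to 11.2%). The transcripts without coding sequence held 1.16% (0.784% to 1.66%) in EtOH and 0.438% (0.287% to 0.638%) in HgCl2, intervals that do not overlap. All these shares leave out RNA of transcripts that could not be read, among them the middle ends with the shared stop codon.

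Of the 12 counted transcripts, 6 were tested, and 5 of these had a mean above 3 counts in both groups. Among these 5, ASPH-203 and ASPH-208 were at least 2-fold higher in HgCl2 and none was at least 2-fold lower. Of the 11912 tested transcripts with a mean above 3 counts in both groups, 36.2% were at least 2-fold different, 17.7% higher and 18.5% lower. With ASPH-217, whose fitted value rests on 0 counts in EtOH, 3 of the 6 were higher. Since the gene was chosen in this comparison, nothing is read from these counts.

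**Figure D3:**
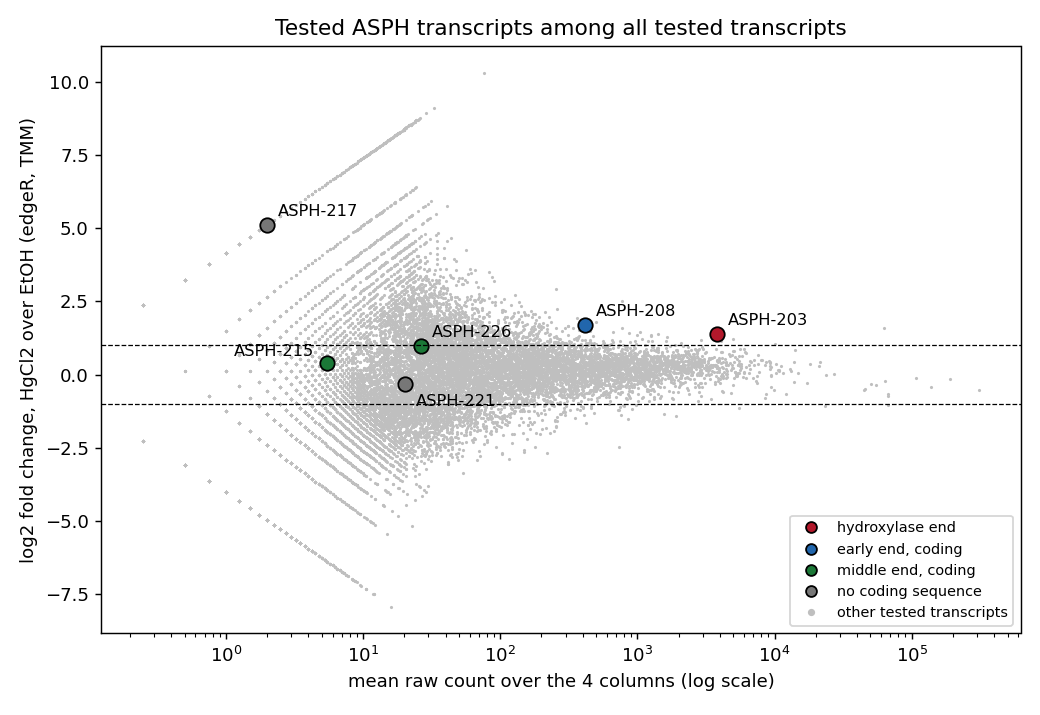
edgeR log2 fold change of HgCl2 over EtOH against the mean raw count (log scale) for the 17547 tested transcripts in grey and the 6 tested ASPH transcripts coloured by 3′ end, with dashed lines at 2-fold. ASPH-203 and ASPH-208 lie above the upper line at counts where few other transcripts do, and ASPH-226 lies on it.

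Levels were compared between isoforms per kb of own bases, which takes it that counts fall on these bases alone, a point that the sources used here do not state. Per kb of own bases, ASPH-203 had a mean of 1538 counts (1476 to 1603) in EtOH and 3646 (3549 to 3745) in HgCl2. This was the highest of the counted ASPH transcripts in both groups, and transcripts without such a run of own bases have no value here. Next in EtOH were ASPH-221 with 52.7 (33.6 to 78.7) and ASPH-208 with 37.4 (32.5 to 42.7), whose intervals overlap. In HgCl2 this order was turned, with 109.4 (101.0 to 118.3) for ASPH-208 and 38.1 (22.2 to 61.0) for ASPH-221. ASPH-226 followed in EtOH with 22.04 (13.3 to 34.4) and ASPH-215 with 19.8 (6.44 to 46.3), which do not differ beyond counting error. In HgCl2, ASPH-226 with 39.4 (27.3 to 55.1), ASPH-221 and ASPH-215 with 23.8 (8.74 to 51.8) could not be separated. The lysine-rich ASPH-204 had 1.51 (0.364 to 4.10) in EtOH and 0.861 (0.104 to 3.11) in HgCl2. The other counted transcripts had at most 13.03 counts per kb, the value of ASPH-217 in HgCl2. Except for ASPH-203, the own bases of the counted transcripts lie within introns of ASPH-203. Their values could thus not be told from unspliced ASPH RNA, and any part of it was not tested.

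**Figure D4:**
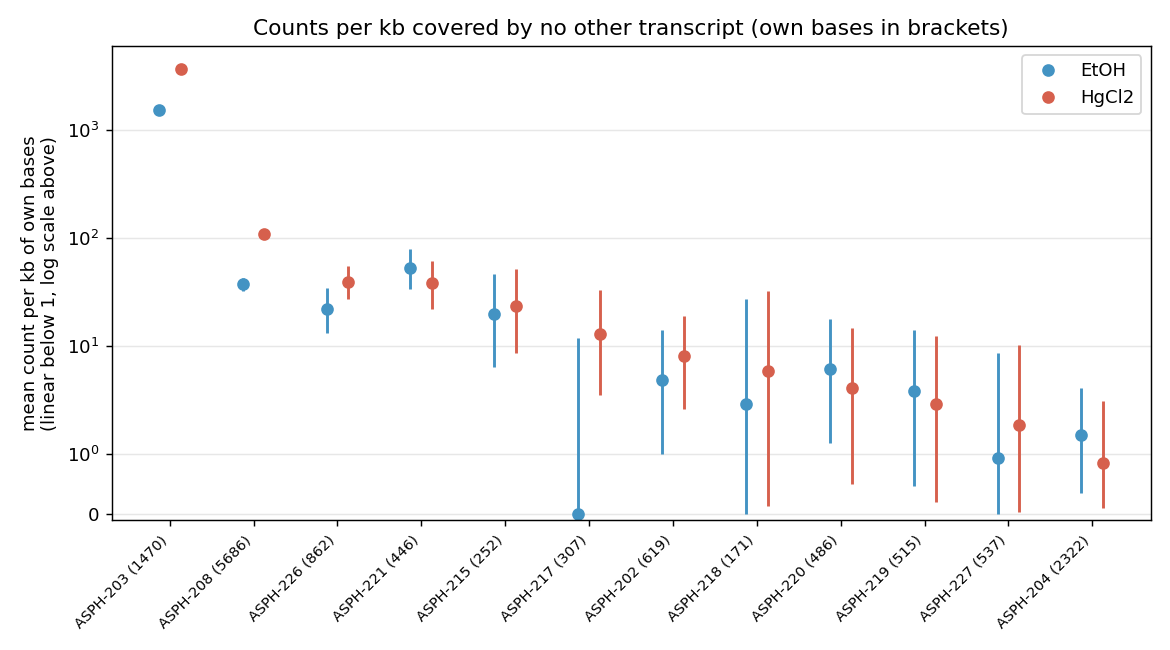
Mean counts per kb of own bases, those that no other listed transcript covers, for the 12 counted ASPH transcripts in EtOH and HgCl2, with exact 95% Poisson intervals as lines and the number of own bases in brackets. ASPH-203 is far above the rest in both groups, ASPH-208 is next in HgCl2, and the lysine-rich ASPH-204 lies near 1 count per kb.

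The deposited FPKM, which divides by the whole transcript, gave these 5 transcripts the same order in each group but other ratios. In EtOH the mean FPKM was 77.7 for ASPH-203, 6.43 for ASPH-221, 6.10 for ASPH-208, 2.71 for ASPH-226 and 2.70 for ASPH-215. In HgCl2 it was 230.0, 5.81, 22.3, 6.06 and 4.05 in the same order of transcripts. On this scale ASPH-203 was 12.7 times the level of ASPH-208 in EtOH, against 41.2 times per kb of own bases.

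By annotated start, most counts were on transcripts of the upstream start. The 7 transcripts that begin within 200 bases of the first annotated start held 2475 and 2479 counts in EtOH and 5996 and 5978 in HgCl2. Transcripts that begin at the internal start, 24.8 kb downstream, number 11, of which 3 have a run of at least 150 own bases. These held 7 and 6 counts in EtOH and 5 and 3 in HgCl2. The assignment to a start is that of the annotation, since the own bases of ASPH-203 and ASPH-208 lie at the 3′ end and not at the start.

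The transcripts most like ASPH-203 in mean count and log2 fold change over the 2 groups were taken from the protein-coding transcripts of other genes, by distance in the plane of both log2 values. They were RHOB-201, a small GTPase of endosomes, at a mean of 2720 counts in EtOH against 5459 in HgCl2, with a log2 fold change of 1.15 and a distance of 0.26. ERRFI1-201, a feedback inhibitor of the EGF receptor, had 3209 and 6779 counts and 1.22, at 0.42. BBS10-201, a chaperonin-like protein of the cilium, had 1903 and 3933 counts and 1.19, at 0.43. AFF4-201, a scaffold of the super elongation complex, had 0.89, and KRR1-201, a factor of ribosome assembly, had 0.94. Each of the 5 had a lower log2 fold change than ASPH-203.

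Genes that work beside the ASPH proteins were taken from 3 lists. Among 32 genes of calcium stores and their refilling, 22 transcripts of 13 genes were tested, with a median log2 fold change of -0.39 against -0.21 over all tested transcripts. Of the 15 with a mean above 3 counts in both groups, 1 was at least 2-fold higher and 6 at least 2-fold lower, beside 17.7% and 18.5% in the background, and their median was -0.47 against 0.07. Of the 6 lower ones, 3 are transcripts of STIM2, a calcium sensor of the endoplasmic reticulum, which are not independent. STIM2-206, of the nonsense-mediated decay class, had 57 and 72 counts in EtOH and 24 and 27 in HgCl2, a log2 fold change of -1.19 (-1.92 to -0.51). JPH1-201, junctophilin, which ties the reticulum to the plasma membrane, had 193 and 215 counts against 79 and 81, with -1.21 (-1.60 to -0.83). CALU-201, the luminal calcium-binding calumenin, had 218 and 221 counts against 104 and 90, with -1.03 (-1.39 to -0.68). The columns of these transcripts did not overlap between the groups.

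The higher one was ORAI3-201, a channel of store-operated entry, named after its value was seen, with 21 and 14 counts in EtOH and 38 and 34 in HgCl2 and 1.18 (0.32 to 2.10). ITPR2-202, an inositol trisphosphate receptor, had the most counts of the list, at 1208 and 1196 in EtOH against 1376 and 1315 in HgCl2, with 0.31 (0.19 to 0.42). The pump transcript with the most counts was the retained intron ATP2A2-205, with 3 and 1 counts against 45 and 42. The partners of junctin had few counts. The calsequestrin CASQ1-201 had 3 and 3 counts in EtOH and 0 and 0 in HgCl2, and triadin had 1 count on TRDN-205 in a single EtOH column, both named after their values were seen. The ryanodine receptors RYR1, RYR2 and RYR3 and the other calsequestrin gene CASQ2 had 0 counts in all columns on every listed transcript, which, as for ASPH, does not by itself show absence.

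The second list holds 46 genes of EGF-domain proteins, the substrates of the hydroxylase, and of Notch signalling, whose receptors and ligands carry many such domains. Its 32 tested transcripts had a median log2 fold change of 0.04, against -0.21 over all tested transcripts. Of the 32, 10 were at least 2-fold higher and 7 at least 2-fold lower, beside 19.2% and 34.1% of all tested. Of the 20 with a mean above 3 counts in both groups, 5 were higher and 1 lower, beside 17.7% and 18.5% in the background, and their median was 0.04 against 0.07. Where all columns needed 10 counts or more, the median of the list was -0.14, against 0.00755 over all transcripts kept. The Notch receptor NOTCH2-201 had 2367 and 2422 counts in EtOH and 1710 and 1692 in HgCl2, a log2 fold change of -0.35 (-0.44 to -0.26). The ligand JAG1-201 had 68 and 92 counts against 58 and 73, which overlap, with -0.14 (-0.64 to 0.34).

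The protease ADAM10-201, the O-fucosyltransferase POFUT1-202 and the coactivator MAML1-201 had log2 fold changes of -0.08, -0.05 and -0.03, each with an interval that holds 0. Another coding transcript of the protease gene, ADAM10-205, named after its value was seen, had 37 and 41 counts against 76 and 70, with 1.05 (0.47 to 1.65). LTBP2-201, a matrix protein with many EGF-like domains, had 468 and 469 counts against 754 and 752, with 0.83 (0.66 to 0.998). The transcription factor HES1-201, a Notch target, and the O-glucosyltransferase POGLUT1-201, named after their values were seen, had means of 207 and 394 and of 153.5 and 306.5 counts, with 1.07 (0.83 to 1.32) and 1.14 (0.86 to 1.43). Also named after their values were seen, FBN2-201 had 5 and 10 counts against 57 and 55, with 3.02 (1.94 to 4.37). The retained intron LTBP3-204, the 1 lower transcript, had 25 and 31 counts against 5 and 5, with -2.31 (-4.07 to -0.95). The list thus held values on both sides of 0.

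The third list holds 23 other oxygenases that use 2-oxoglutarate. Its 16 tested transcripts had a median log2 fold change of 0.37, against -0.21 over all tested. Of the 16, 4 were at least 2-fold higher and 5 at least 2-fold lower, beside 19.2% and 34.1% of all tested. Of the 8 with a mean above 3 counts in both groups, 1 was higher and 1 lower, beside 17.7% and 18.5% in the background, and their median was 0.37 against 0.07. With 10 counts or more in all columns the median was -0.00782, against 0.00755 over all transcripts kept. HIF1AN-201, the asparagine hydroxylase of hypoxia-inducible factor, had 797 and 809 counts in EtOH and 467 and 424 in HgCl2, with -0.71 (-0.88 to -0.54). TMLHE-201, which acts in carnitine synthesis, had 392 and 394 counts against 535 and 522, with 0.57 (0.38 to 0.76). P4HA2-207, a collagen prolyl hydroxylase, had 35 and 27 counts against 41 and 48, with 0.66 (-0.03 to 1.38). No transcript of the paralogues ASPHD1 and ASPHD2 was tested.

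**Figure D5:**
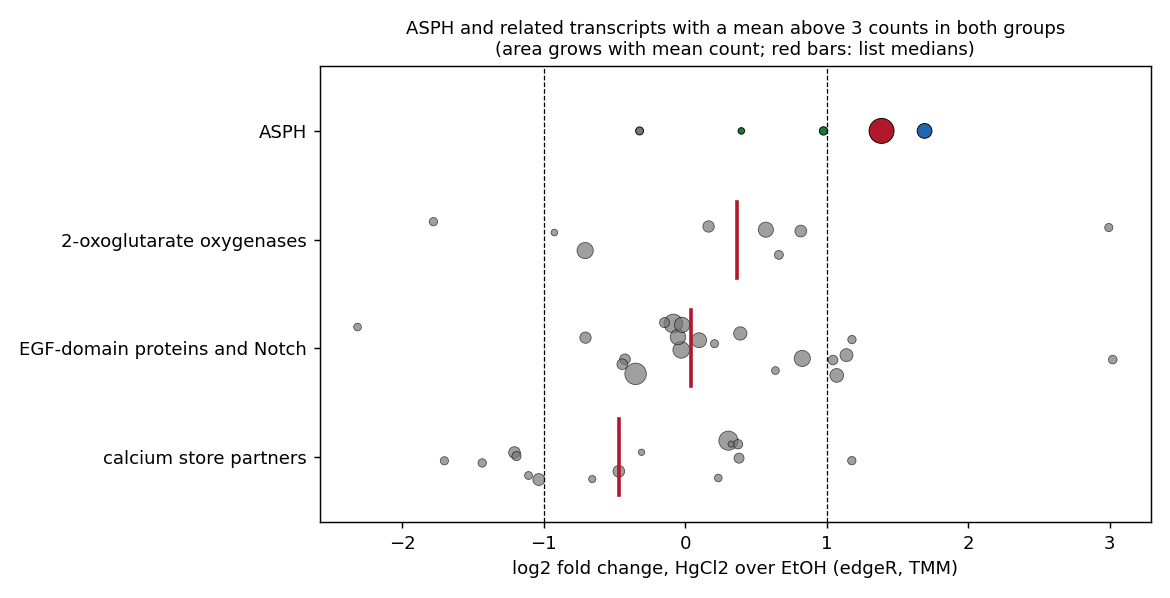
Log2 fold change of HgCl2 over EtOH (edgeR, TMM) for the ASPH transcripts and the transcripts of the 3 lists with a mean above 3 counts in both groups, with points that grow with the mean count, red bars at the list medians and dashed lines at 2-fold. The calcium store list has its median at -0.47, the others at 0.04 and 0.37, and ASPH-203 and ASPH-208 lie to the right of the upper line.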

How the data were processed

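RNA-seq of H1299 cells was analysed from whole-series tables with 2 columns per group, assigned by the names in their headers. The authors trimmed reads with Trim Galore, used STAR 2.5.4b for alignment to GRCh38 and counted with Rsubread on the transcripts of Ensembl 98; the deposited counts are raw, and the counting options are not given in the sources used here. The authors derived the deposited FPKM from these counts with DESeq2 1.26.0. Log2 fold changes were computed with edgeR 4.0.16 (glmQLFit, TMM, R 4.3.3) over the 17547 transcripts whose mean FPKM passed 1 in either group; DESeq2 1.42.0 was an alternative. No p-value is given, since the columns of each group were counted as 1 sample. Of 227368 identifiers, 223558 were found in GENCODE 44, which gave exons, ends and own bases on either strand; the others could not enter the own bases. Tested on simulated data for 17547 transcripts, 198 of 200 transcripts with at least 30 counts changed 4-fold passed 2-fold. The simulated counts had Poisson noise alone and as many transcripts raised as lowered. They do not check the normalization on the real contrast, where more transcripts were at least 2-fold lower than higher. Alternatives changed the filter, the normalization, the pseudocount and the replicate block, and left out each column in turn. The transcripts and lists were chosen with earlier results of these data known. Named were every counted ASPH transcript, for each role of a list its tested transcript with the most counts, and the 5 nearest to ASPH-203. No sequence of the gene is reported here.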

Additional observations from a re-analysis of the deposited data

How the results depend on the processing

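The log2 fold change of ASPH-203 was at least 1 under every alternative run. It was 1.55 with log2(FPKM + 1), 1.57 with log2(FPKM + 0.1), 1.53 with no filter and 1.21 where all columns needed 10 counts or more, and the sum over the hydroxylase end took the same values, 1.55, 1.57, 1.53 and 1.21. Leaving out 1 column gave between 1.38 and 1.39 for ASPH-203 and between 1.62 and 1.77 for ASPH-208. With the replicate number as a block it was 1.39, and ASPH-208 was 1.69; the columns share only a number, and with 1 sample a group the block gives no paired test. ASPH-208 lay between 1.52 and 1.86 over all alternatives, the early ends between 1.49 and 1.81 and the middle ends between 0.71 and 1.02. ASPH-226 passed 2-fold with the DESeq2 size factors and fold change (1.02 each), with no filter (1.12), with log2(FPKM + 0.1) (1.13) and without HgCl2 replicate 1 (1.06).

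The share of ASPH counts on the hydroxylase end was 91.0% in EtOH and 93.6% in HgCl2 per own base, against 89.2% and 88.5% of the counts, which grouping by coding sequence left as they were. Transcripts at least 2-fold different numbered 9359, 27155 with no filter and 2064 where all columns needed 10 counts. With the latter, the medians of the lists of calcium stores, EGF-domain proteins and 2-oxoglutarate oxygenases were -0.64, -0.14 and -0.00782, the last 2 turning sign. The median over all transcripts kept was 0.00755. Of the list transcripts kept, 8 of 13, 1 of 18 and 1 of 7 passed 2-fold, beside 2064 of 8720 in the background. The filters kept a smaller or larger number of transcripts, 8720 with 10 counts needed and 39729 with no filter. They also moved the fold changes of kept transcripts. With 10 counts needed, ASPH-203 went from 1.39 to 1.21, ASPH-208 from 1.69 to 1.52 and ASPH-221 from -0.32 to -0.49. With no filter these were 1.53, 1.83 and -0.18. The part of each in the changed numbers and medians was not tested. Depth limits ASPH-202, ASPH-204, ASPH-215 and all transcripts without coding sequence.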
